A study of Caenorhabditis elegans with 24 samples.

Results

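The nuclear hormone receptor genes of Caenorhabditis elegans were taken as every gene of the deposited expression table whose name is nhr followed by a hyphen and a number. The rule used the name alone and no measured value. It found 267 of the 20191 genes of the table, and all 267 were matched by name to the Ensembl annotation of the WBcel235 genome. The libraries came from whole worms on day 3 of treatment with plant compounds and fell into 5 groups: abl-1 KO given quercetin (n = 5), wild type (wt) given quercetin (n = 5), wt given lutein (n = 4), untreated abl-1 KO (n = 5) and untreated wt (n = 5). The abl-1 KO strain NV50 carries abl-1(ok171), an allele of the worm Abl tyrosine kinase gene, and the wt strain is NV48. Both strains were isolated from a cross of XR1 with GRU102, a line that expresses amyloid-β in neurons. The labels and the study's strain list give both as strains without the amyloid transgene. Its figure legends on the RNA sequencing likewise speak of wild type and abl-1 KO worms. The methods text on RNA sequencing, in contrast, names another abl-1 KO strain and calls NV48 the amyloid strain, so whether the worms carried the transgene was not settled here. Quercetin, a flavonoid, and lutein, a carotenoid, were given at 100 µM from the egg stage, the untreated groups received the solvent, and all worms fed on HT115 bacteria with the empty RNAi vector L4440. Each strain is 1 line, and each library came from many pooled worms, so fewer cells that express a gene and less RNA per cell cannot be told apart.

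Nuclear hormone receptors are transcription factors that bind DNA through a zinc finger domain and, in many cases, a small fat-soluble ligand through a second domain. Flies and mammals have far fewer such genes than nematodes, which carry a much enlarged set, most of it descended from a relative of the mammalian HNF4. In the worm the best studied members set the timing of molting, switch fat burning and fatty acid desaturation on and off with food supply, sense vitamin B12 through its metabolic products, and turn on detoxification genes. A minority have direct counterparts outside nematodes.

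Levels are given as RPKM, read numbers scaled for transcript length and for the mapped reads of the library, so they can be compared between genes. The depth was estimated from the step size of the low values at 27060000 to 45140000 reads per library (median 33330000). At the median summed exon length of the members, 1354 bases, a level of 0.5 RPKM corresponds to about 23 reads. abl-1 itself, the check of the genotype labels, lay between 1.71 and 2.14 RPKM in the 10 abl-1 KO libraries and between 6.85 and 7.77 RPKM in the 14 wt libraries. Summed markers of 48 sperm genes ranged over the libraries between 7.62 and 731 RPKM. As a ratio of highest to lowest library this was far more than for markers of oocytes, intestine, hypodermis, molting, muscle, neurons or embryos. The highest sperm sums were those of abl-1 KO untreated replicate 2 (731) and abl-1 KO quercetin replicate 2 (519).

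The receptor genes were mostly expressed at low levels. Their mean RPKM over the 24 libraries had a median of 0.785, against 1.40 for all genes of the table. Of the 267, 11 were listed at 0 in every library, 67 had a mean above 0 and below 0.1 RPKM, 35 from 0.1 to below 0.5, 33 from 0.5 to below 1, 78 from 1 to below 5, 25 from 5 to below 10 and 18 had at least 10. A level of 10 or more was thus reached by 6.74% of the members and by 32.2% of all genes. The genes listed at 0 were nhr-9, nhr-82, nhr-223, nhr-233, nhr-242, nhr-248, nhr-262, nhr-264, nhr-265, nhr-267 and nhr-288. All 267 together took 684 to 823 RPKM per library, which is 0.0925 to 0.114% of the summed RPKM, and the 10 highest members held 31.8 to 36.2% of that.

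**Figure D1:**
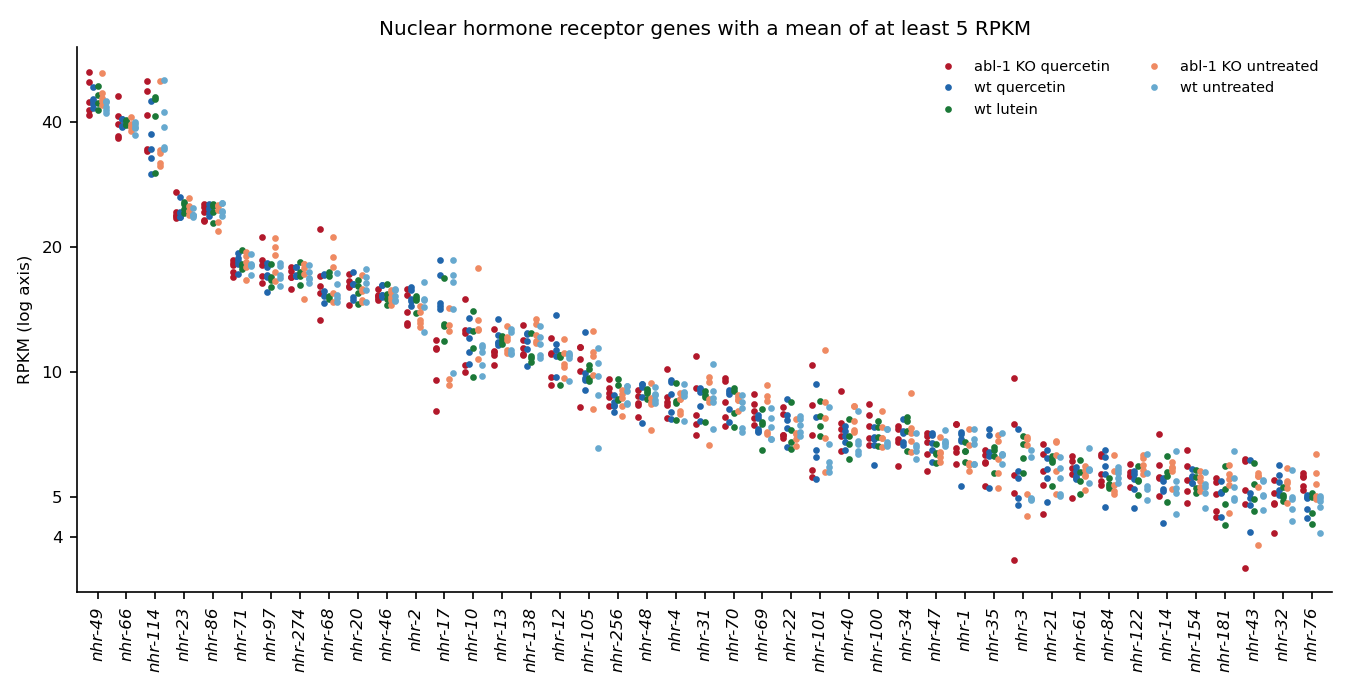
RPKM (log axis) of the 43 members with a mean of at least 5 RPKM, one point per library, coloured by group and ordered by mean. The 3 leading genes, nhr-49, nhr-66 and nhr-114, lie at 29.9 RPKM or above in every library, and the colours of the 5 groups overlap for nearly every gene.

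Tests were made for the 160 members (59.9%, against 63.3% of all genes) that reached 0.5 RPKM in at least 4 libraries. The other 107 stayed below that and were not tested. Among them was nhr-206, which the study lists among the genes raised both by quercetin in wt worms and in untreated abl-1 KO worms. The study used another test, of the CLC software. A fit without the level filter, which included nhr-206, called no member in any comparison. nhr-206 had a mean of 0.23 RPKM and a highest value of 0.502 RPKM in abl-1 KO untreated replicate 2. nhr-244 had the highest single value of the untested genes, 1.58 RPKM in that same library, and was at 0 in 11 others.

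The highest level belonged to nhr-49, the worm counterpart in function of mammalian PPARα, which drives fatty acid desaturation and β-oxidation. It had 44.6, 52.7, 42.6, 49.9 and 41.5 RPKM in abl-1 KO quercetin worms, 43.2, 48.6, 45.3, 44.7 and 44.0 in wt quercetin worms, 42.8, 44.4, 46.4 and 48.7 in wt lutein worms, 45.7, 52.3, 44.9, 47.0 and 43.9 in abl-1 KO untreated worms, and 44.96, 43.3, 42.8, 44.6 and 41.9 in wt untreated worms. All groups overlapped, and the largest log2 fold change over the 6 pairs of groups was 0.10 (SE 0.06, adjusted p = 0.533), in abl-1 KO untreated against wt untreated worms. nhr-66, whose protein pairs with NHR-49 to hold down genes of sphingolipid breakdown, averaged 39.5 ± 1.84 RPKM (SD, n = 24). The other NHR-49 partners were lower, nhr-13 at 11.8 ± 0.719 and nhr-80 at 3.67 ± 0.504 RPKM (SD, n = 24). The ranges of nhr-66 (36.5 to 46.0 RPKM) and nhr-49 (41.5 to 52.7 RPKM) overlapped, while nhr-13 never came above 13.4 RPKM.

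nhr-114, a receptor that protects the germline on some bacterial diets, averaged 38.8 RPKM and was much less even than its neighbours in rank. It had 50.1, 47.4, 41.4, 34.4 and 34.1 RPKM in abl-1 KO quercetin worms, 44.9, 37.3, 34.3, 32.6 and 29.9 in wt quercetin worms, 45.3, 41.2, 45.9 and 30.0 in wt lutein worms, 50.2, 33.6, 34.1, 31.2 and 31.8 in abl-1 KO untreated worms, and 50.5, 42.3, 38.8, 34.3 and 34.8 in wt untreated worms. In each group a library with the number 1 or 3 held the highest value, and the range within each group was wider than any difference between group means.

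nhr-23, the counterpart of mammalian ROR that starts each larval molt and is also used in the male germline, was one of the steadiest receptors. Its 24 values ran from 23.4 to 27.0 RPKM, and its SD on the log2 scale was 0.056, against a median of 0.174 for the members tested and 0.131 for all genes tested. nhr-46 alone was steadier (0.046, with 14.5 to 16.3 RPKM). nhr-86, which turns on intestinal immune genes when the worm senses a bacterial phenazine, was close to nhr-23 in level and spread with 21.8 to 25.5 RPKM. The remaining members of the top 10, for which no role is given here except for nhr-68, were nhr-71 (mean 18.2 RPKM), nhr-97 (17.7), nhr-274 (17.2), nhr-68 (16.5) and nhr-20 (16.0). The ranges of all pairs of these 5 overlapped, so most of their order is not fixed by the data, but nhr-71 was above nhr-20 in each of the 24 libraries.

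Of the 8 listed receptors of molting and development, only nhr-23 and nhr-2 had a mean of at least 10 RPKM. nhr-2, known from the early embryo, was at 14.5 ± 1.09 RPKM (SD, n = 24). The counterparts of fly Ftz-F1 (nhr-25, 1.13 RPKM), of mammalian NR4A receptors (nhr-6, 1.24) and of the TR2 and TR4 receptors (nhr-41, 1.41) averaged little above 1 RPKM. The other 3 genes of that list, nhr-67, nhr-85 and nhr-91, lay between 0.509 and 0.725 RPKM. Of the 12 listed receptors with counterparts outside nematodes, 11 were tested. The exception was nhr-111, which was at 0 in 23 libraries. The HNF4-like nhr-69 (7.72 RPKM) and nhr-64 (4.65), and nhr-48 (8.66) and nhr-8 (4.18), which are relatives of the vitamin D and xenobiotic receptors of vertebrates, were in the middle of the range.

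Most receptor genes lay on chromosome V. It held 165 of the 267 members (61.8%), against 25.1% of all matched genes, followed by chromosome IV with 33, I with 23, X with 23, II with 15 and III with 8. Chromosome V members passed the level filter in 59.4% of cases, against 47.4% of all genes on that chromosome, whereas on chromosome I 8 of 23 members (34.8%) passed, against 72.1% of all genes there. Chromosome V supplied 39.0% of the summed member RPKM and chromosome IV 24.7%.

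**Figure D2:**
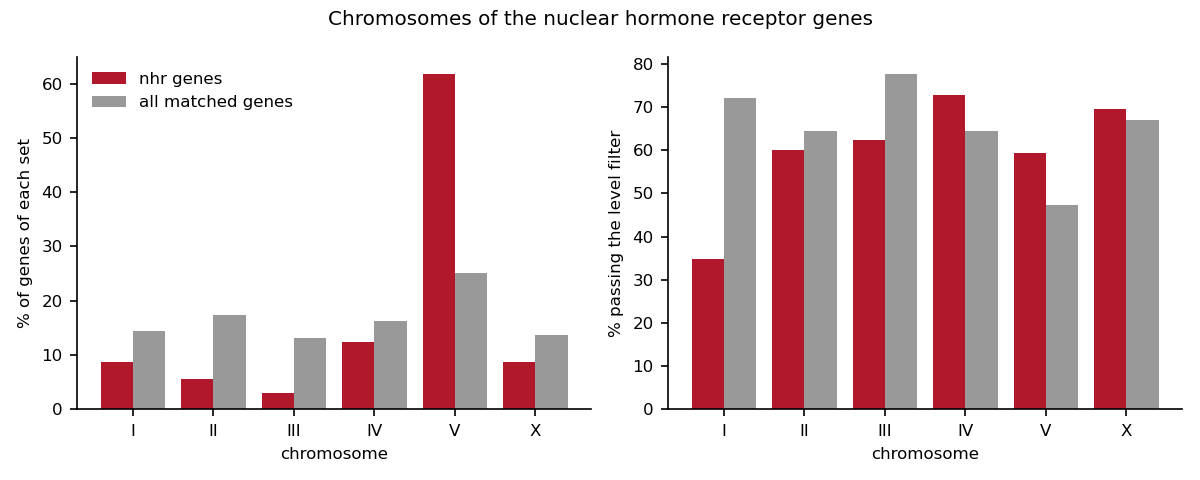
Left, the percentage of the 267 receptor genes and of all matched genes on each chromosome. Right, the percentage of each that reached 0.5 RPKM in at least 4 libraries. Chromosome V holds 61.8% of the receptor genes and chromosome I has the lowest share that passed, 34.8%.

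Many members sat in tandem groups, counted as members with no other protein-coding gene of the annotation between them. The count was 134 members in 43 such runs, 104 of them on chromosome V. The longest run held 9 genes, from nhr-185 to nhr-124 at V:3844429-3886204 (WBcel235), and none was tested, with means from 0.0077 to 0.259 RPKM. Runs of 7 at V:2219004-2235180 (nhr-56 to nhr-96, means 0.904 to 3.06 RPKM) and at V:6980587-7000651 (nhr-161 to nhr-42, 0.482 to 4.41 RPKM) were tested throughout. Members with high levels were rarely in runs: 5 of the 43 with a mean of at least 5 RPKM were.

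Neighbours in a run could differ widely in level. Of 91 neighbouring pairs, 11 differed at least 10-fold in mean RPKM. The widest gap was between nhr-31, which is needed for the growth of the excretory canal, at 8.60 RPKM and nhr-258 at 0.0649 RPKM, a ratio of 132. Next came nhr-53 at 2.32 and nhr-199 at 0.0255 RPKM, which are 706 bases apart (ratio 91.02), and nhr-44 at 0.959 and nhr-219 at 0.0253 RPKM, 556 bases apart (ratio 37.96). The lower gene of each pair rests on few reads, and nhr-199 and nhr-219 were at 0 in 6 and 5 libraries. Near-identical family members may share reads, and how such reads were assigned is not given in the sources used here.

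Loss of abl-1 was compared with wt in the untreated worms. No receptor gene passed the threshold (adjusted p of at most 0.05 with limma), while 61 of the 12771 genes tested did (0.478%). limma-voom on estimated reads, a fit chosen after seeing the data, likewise called 0 members in this and every other comparison. The fits that did call members are given at the end. At an unadjusted p of at most 0.05 stood 29 of the 160 members (18.1%), 28 of them higher in abl-1 KO, against 11.1% of all genes. The log2 fold change was above 0 for 129 members, with a median of 0.12, against 62.2% of all genes and a median of 0.03. Most of this lay among the weakly expressed members: 74 of the 82 with a mean below 2 RPKM were above 0 (median 0.17), where all genes of that level had 74.3% above 0 and a median of 0.12. Among the 18 members with at least 10 RPKM the median was 0.01. With libraries rescaled by a trimmed mean, 117 members and 46.7% of all genes were above 0, and the members' median was 0.09. Groups did not overlap for 0 members in either direction, against 1.56% of genes higher and 0.532% lower in abl-1 KO.

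A single library, abl-1 KO untreated replicate 2, had the highest value of all 24 libraries for 60 of the 160 members (37.5%, against 15.5% of all genes tested), and this is also the library with the highest sperm marker sum. With this library and wt quercetin replicate 4, the wt library with the most sperm RNA, left out, 127 of 160 members were still above 0, against 60.2% of all genes. The members' median was then 0.08, against 0.02 for all genes, and 10 members stood at an unadjusted p of at most 0.05 instead of 29. All 41 tested sperm markers were above 0 in this comparison, (median log2 fold change 0.73), and so were 95 of 104 tested cuticle collagen genes of the col family (median 0.28), a list added after seeing the data. The part of the sperm RNA and of the collagen levels in the values of the receptor genes was not tested.

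**Figure D3:**
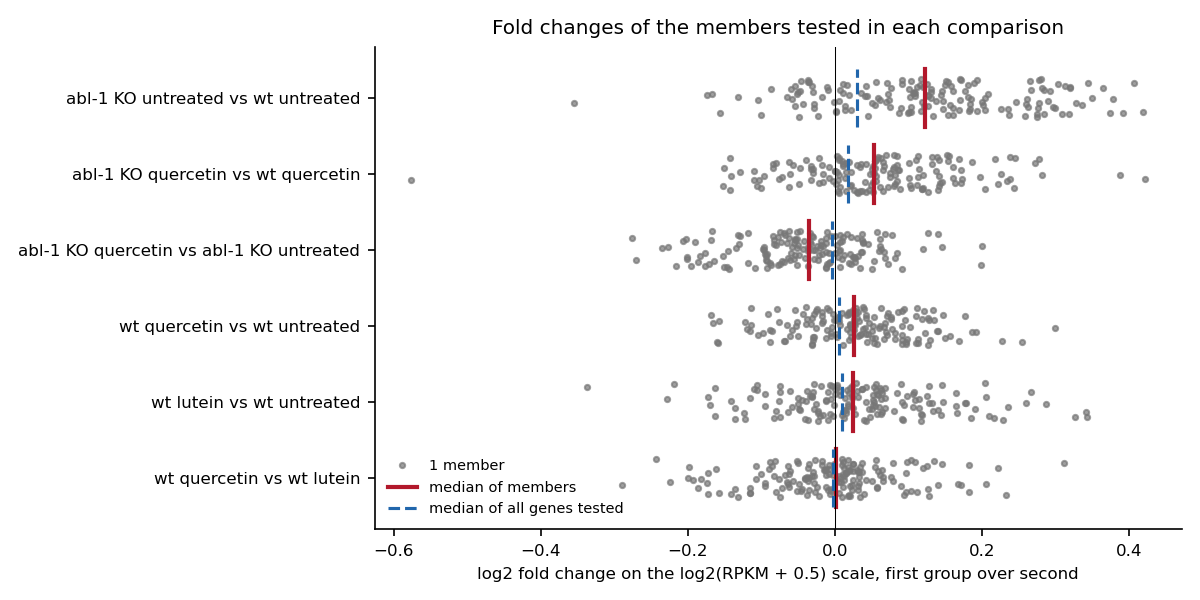
Log2 fold changes of the 160 members tested (1 grey point each) in the 6 pairs of groups, first group over second, with the median of the members (red line) and of all 12771 genes tested (blue dashed line). The members' median is 0.12 for abl-1 KO untreated against wt untreated worms and lies between -0.03 and 0.05 in the other comparisons.

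In quercetin-treated worms the same question was asked with other libraries, abl-1 KO quercetin against wt quercetin. Again no receptor gene passed the threshold, while 0.485% of all genes did. At an unadjusted p of at most 0.05 stood 8 members (5%), against 8.18% of all genes, and 121 of 160 were above 0 with a median of 0.05, against 58.5% of all genes and a median of 0.02. At matched levels the members' median was not higher throughout. Below a mean of 2 RPKM it was 0.0628, against 0.0655 for all genes. There 65 of the 82 members and 65.96% of all genes were above 0. From 2 to below 5 RPKM the medians were 0.0843 for members and 0.0641 for all genes. From 5 to below 10 RPKM they were 0.0064 and 0.037, and from 10 RPKM 0.0026 and 0.0023. After rescaling by a trimmed mean 101 members and 47.8% of all genes were above 0. Groups did not overlap for 2 members that were higher in abl-1 KO quercetin, nhr-204 and nhr-76, against a background of 1.09% of genes, and for 1 that was lower, nhr-17, against 0.587%. All 41 sperm markers were above 0 here too (median 1.07), as were 79 of the 104 collagen genes (0.14).

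nhr-17, at X:12663837-12667854, had the largest difference of the family. Its levels were 11.9, 9.58, 11.3, 11.4 and 8.06 RPKM in abl-1 KO quercetin worms, against 18.6, 14.4, 14.2, 17.1 and 14.7 RPKM in wt quercetin worms. All 5 abl-1 KO values were below all 5 wt values (exact permutation test, two-sided, p = 0.00794, the smallest that 5 against 5 can give). The log2 fold change was -0.58 (SE 0.15, limma adjusted p = 0.119), so the difference did not pass the threshold over all genes. In this comparison nhr-17 passed only in a fit with a replicate block, which is treated at the end. The labels do not say that a replicate number marks a shared batch. Without treatment nhr-17 had 14.2, 9.28, 12.6, 13.0 and 9.61 RPKM in abl-1 KO worms, against 18.6, 14.2, 17.2, 16.4 and 9.94 RPKM in wt worms. Here the groups overlapped through wt untreated replicate 5, and the log2 fold change was -0.35 (SE 0.15, adjusted p = 0.389). The wt lutein worms, with 16.8, 13.0, 11.9 and 12.9 RPKM, lay between.

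nhr-204, at V:254838-258830, was higher in abl-1 KO. It had 1.72, 2.23, 1.71, 1.47 and 1.69 RPKM in abl-1 KO quercetin worms, against 0.968, 1.27, 1.19, 1.43 and 1.29 RPKM in wt quercetin worms, with no overlap (log2 fold change 0.39, SE 0.11, adjusted p = 0.185). In untreated worms it had 1.74, 2.07, 1.45, 1.62 and 1.49 RPKM in abl-1 KO, against 1.00, 1.28, 1.20, 0.995 and 1.56 RPKM in wt, and 1 wt library reached into the abl-1 KO range (log2 fold change 0.35, SE 0.11, adjusted p = 0.216).

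nhr-76, at IV:627537-633963, acts in the worm intestine where it links serotonin signals to the burning of stored fat. It had 5.63, 5.71, 5.21, 5.32 and 5.598 RPKM in abl-1 KO quercetin worms, against 4.68, 4.46, 5.00, 4.97 and 5.07 RPKM in wt quercetin worms, which is a small shift without overlap (log2 fold change 0.17, SE 0.07, adjusted p = 0.487). Untreated abl-1 KO worms averaged 5.48 ± 0.575 RPKM and untreated wt worms 4.74 ± 0.374 RPKM (SD, n = 5 each), with overlapping values (log2 fold change 0.19, SE 0.07, adjusted p = 0.288).

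nhr-176, at V:16071325-16072738, is required for the response to the anthelmintic thiabendazole. It had 2.73, 2.53, 2.16, 2.51 and 1.61 RPKM in abl-1 KO quercetin worms, against 1.57, 1.92, 1.095, 1.68 and 1.70 RPKM in wt quercetin worms, and 1 abl-1 KO library fell inside the wt range (log2 fold change 0.42, SE 0.14, adjusted p = 0.387). In untreated abl-1 KO worms it had 2.34, 3.72, 1.90, 2.00 and 1.98 RPKM, against 1.51, 2.10, 1.88, 1.78 and 1.51 RPKM in untreated wt worms, with replicate 2 far above the other abl-1 KO libraries.

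These 4 genes, nhr-17, nhr-76, nhr-176 and nhr-204, were the members that stood at an unadjusted p of at most 0.05 in both comparisons of abl-1 KO with wt, each in the same direction in both. They make up 2.5% of the members tested, and the same was true of 3.19% of all genes tested, so the share is near the background. The comparisons share no library, but they set the same strains against each other and use a shared estimate of each gene's spread. Over all 160, 106 members were above 0 in both (66.2%, against 45.3% of all genes), 16 below 0 in both (10.0%, against 24.7%) and 38 in opposite directions. These shares of all genes were not matched for level.

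**Figure D4:**
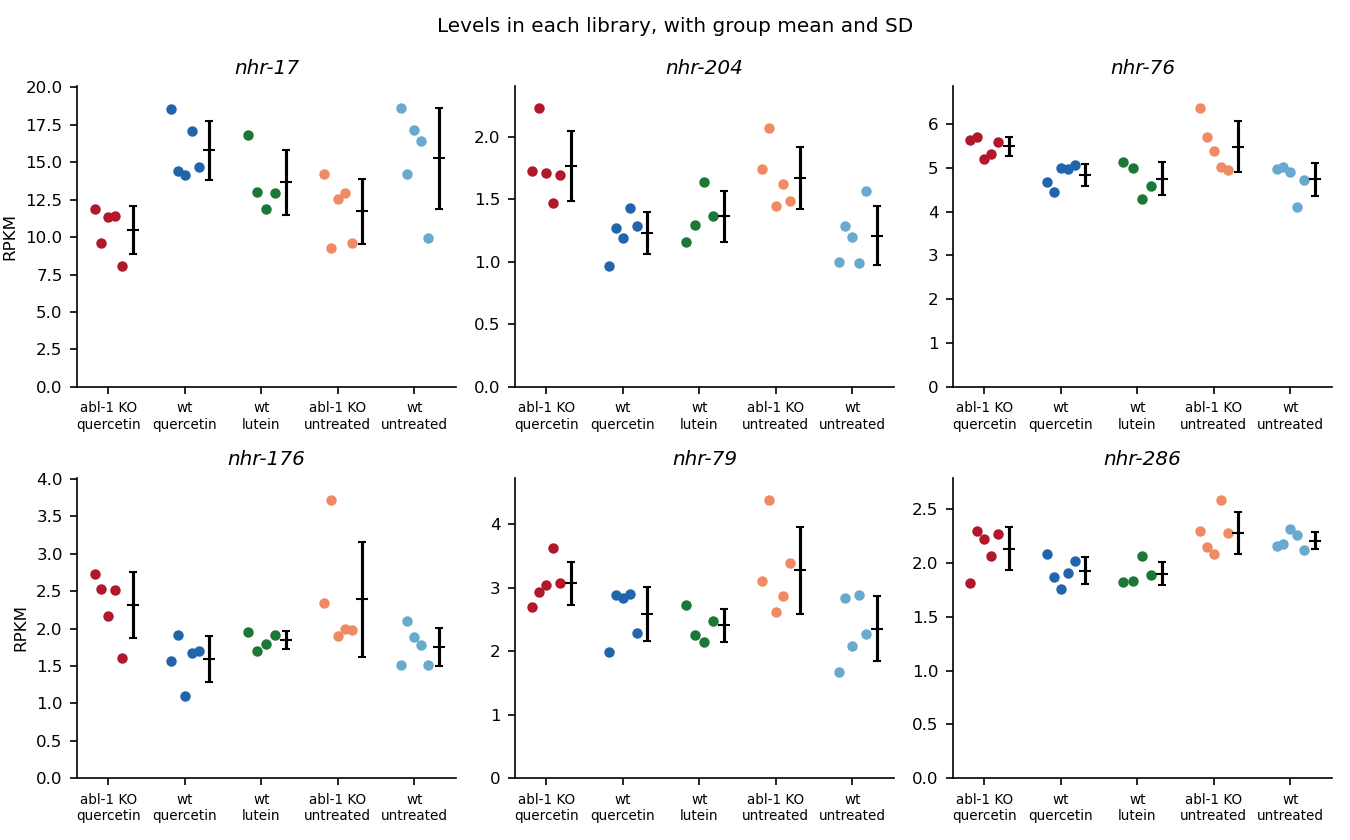
RPKM in each library (points) with the group mean and SD (black) for 6 members with small unadjusted p values. nhr-17 is lower in both abl-1 KO groups, with no overlap between quercetin-treated abl-1 KO (8.06 to 11.9) and wt (14.2 to 18.6), while nhr-204, nhr-76, nhr-176 and nhr-79 have higher means in both abl-1 KO groups than in the matching wt groups.

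Other members with small unadjusted p values in untreated worms were low to middling in level. nhr-79 had 3.10, 4.39, 2.63, 2.87 and 3.40 RPKM in abl-1 KO worms, against 1.68, 2.84, 2.09, 2.88 and 2.27 RPKM in wt worms (log2 fold change 0.41, SE 0.13, adjusted p = 0.22). nhr-183 averaged 0.975 RPKM in abl-1 KO and 0.710 RPKM in wt worms (0.29, SE 0.09), and nhr-115 averaged 0.926 RPKM in abl-1 KO and 0.589 RPKM in wt worms (0.37, SE 0.13). In quercetin-treated worms nhr-119 averaged 3.13 RPKM in abl-1 KO and 2.56 RPKM in wt (0.24, SE 0.08), and nhr-80, which promotes oleic acid synthesis, averaged 4.06 RPKM in abl-1 KO and 3.34 RPKM in wt (0.25, SE 0.10). The values of all these genes overlapped between groups.

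Quercetin was compared with no treatment within each genotype. In wt worms no member and no other gene passed the threshold (0%), and 2 members stood at an unadjusted p of at most 0.05 (1.25%, against 1.35% of all genes). The study, in contrast, reports many genes as significantly changed by quercetin in wt worms. It used the differential expression test of the CLC software, not limma on log2 RPKM values of the genes that passed the level filter. The absence of calls here therefore does not show that quercetin changed no gene. In the limma fit the fold change was above 0 for 105 members with a median of 0.03, against 54.1% of all genes and 0.01. Medians were close at matched levels. Below a mean of 2 RPKM the median was 0.039 for the 82 members, 56 of them above 0, and 0.040 for all genes, 61.7% above 0. From 2 to below 5 RPKM it was 0.019 for the members and 0.017 for all genes. Beside the members, 40 of the 41 sperm markers (median 0.77) and 81 of the 104 collagen genes (0.42) were above 0. In abl-1 KO worms again no gene passed (0%), and 1 member, nhr-226, stood at an unadjusted p of at most 0.05 (0.625% of members, against 1.82% of all genes). It had 0.923 RPKM in abl-1 KO quercetin and 1.17 RPKM in abl-1 KO untreated worms on average (log2 fold change -0.24, SE 0.11). The next smallest p values were those of nhr-243 (log2 fold change 0.20), nhr-133 (-0.16), nhr-63 (-0.28) and nhr-183 (-0.18), and values of all 5 overlapped between the groups. Here 53 of 160 members were above 0 and the median was -0.03, against 47.1% of all genes and a median of -0.004. With abl-1 KO untreated replicate 2 and wt quercetin replicate 4 left out, 92 members were above 0 and the median was 0.01, against 51.5% of all genes and 0.003. All 41 sperm markers (median 1.17) and 89 of the 104 collagen genes (0.20) were above 0 with all libraries in, and their part in the receptor values of either genotype was not tested. Groups of abl-1 KO quercetin and abl-1 KO untreated worms overlapped for every member (backgrounds 0.0626% of genes higher and 0.157% lower).

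Between wt quercetin and wt untreated worms the groups did not overlap for 1 member that was lower, nhr-286 (background 0.125% of genes), and for no member that was higher (0.204%). nhr-286 had 2.08, 1.87, 1.76, 1.91 and 2.02 RPKM in wt quercetin worms, against 2.16, 2.18, 2.31, 2.26 and 2.12 RPKM in wt untreated worms (log2 fold change -0.16, SE 0.07, adjusted p = 1.00). nhr-110 averaged 1.62 RPKM in wt quercetin and 1.27 RPKM in wt untreated worms (log2 fold change 0.26, SE 0.11), with overlap. nhr-195 (log2 fold change 0.30, SE 0.16), nhr-32 (0.13, SE 0.07) and nhr-173 (0.14, SE 0.09) came next by p, and each overlapped.

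The difference between the quercetin effect in abl-1 KO and that in wt worms passed the threshold for no gene (0%). nhr-110 had the smallest unadjusted p of the members. Its log2 difference of effects was -0.45 (SE 0.16, limma adjusted p = 1.00), with means of 1.41 RPKM in abl-1 KO quercetin, 1.62 in wt quercetin, 1.72 in abl-1 KO untreated and 1.27 in wt untreated worms. The abl-1 KO untreated mean includes 2.52 RPKM in replicate 2, where the other 4 libraries had 1.30 to 1.64 RPKM. nhr-32 followed with -0.26 (SE 0.10), then nhr-256 with 0.14 (SE 0.07), nhr-243 with 0.25 (SE 0.14) and nhr-34 with -0.18 (SE 0.10).

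Lutein gave as few differences. No gene passed the threshold in wt lutein against wt untreated worms (0%), 2 members stood at an unadjusted p of at most 0.05 (1.25%, against 1.64% of all genes), and 100 of 160 were above 0 with a median of 0.02, against 57.1% of all genes and a median of 0.01. The groups did not overlap for nhr-115 and nhr-5, which were higher with lutein (background 0.423% of genes), and for nhr-286, which was lower (0.399%). nhr-115 had 0.875, 0.794, 0.832 and 0.949 RPKM in wt lutein worms, against 0.702, 0.669, 0.542, 0.459 and 0.573 RPKM in wt untreated worms (log2 fold change 0.33, SE 0.14, adjusted p = 1.00). nhr-286 had 1.82, 1.83, 2.06 and 1.89 RPKM in wt lutein worms (log2 fold change -0.17, SE 0.07). Behind these by p came nhr-110 (log2 fold change 0.22), nhr-121 (-0.16) and nhr-195 (0.29), with overlapping values. This comparison and that of wt quercetin use the same wt untreated libraries, so the low nhr-286 values in both are not separate observations.

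Quercetin and lutein were also set against each other in wt worms at their shared dose of 100 µM. No gene passed the threshold (0%), no member stood at an unadjusted p of at most 0.05, and the groups overlapped for every member (backgrounds 0.18% of genes higher and 0.446% lower). The members' fold changes ran from -0.29 to 0.31 and were evenly split, 80 above and 80 below 0. The smallest p values were those of nhr-121 (log2 fold change 0.18, SE 0.09), nhr-256 (-0.10, SE 0.05), nhr-180 (-0.22, SE 0.13), nhr-60 (-0.20, SE 0.12) and nhr-109 (0.23, SE 0.14). A test for any difference among the 5 groups called 0.697% of all genes and no member, and 10 members stood at an unadjusted p of at most 0.05 (6.25%, against 7.63% of all genes). The smallest adjusted p values were those of nhr-204 (0.146) and nhr-17 (0.201). Without wt untreated replicate 5, which has the low nhr-17 value, nhr-17 passed this test (adjusted p = 0.0364).

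Grouped by role, no list of receptors had a called member in any comparison. In abl-1 KO untreated against wt untreated worms, 10 of 12 receptors of lipid and nutrient metabolism were above 0 (median log2 fold change 0.13), 7 of 8 of molting and development (0.09), 9 of 11 with counterparts outside nematodes (0.11), and 4 of 7 of xenobiotics, metals, hypoxia and pathogens (0.10), against the median of 0.12 for all members tested. The last list includes nhr-14 (5.55 ± 0.6 RPKM), which acts on iron uptake and immunity, nhr-57 (2.03 ± 0.402 RPKM), a known target of the hypoxia factor HIF-1, nhr-45 (4.03 ± 0.541 RPKM) and nhr-42 (4.10 ± 0.743 RPKM, SD, n = 24 each). nhr-62 of the lipid list, which is needed for the long life of diet-restricted worms, was at 1.84 ± 0.256 RPKM (SD, n = 24). Receptors with another kind of name had no call either: daf-12, the receptor of the dafachronic acids that govern dauer entry, averaged 2.76 RPKM, sex-1, which reads the X chromosome dose, 19.5 RPKM, and hizr-1, the zinc sensor, was tested with them.

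Genes that make ligands or serve as cofactors were also without a call. mdt-15, the Mediator subunit through which NHR-49 acts, was at 39.0 to 48.04 RPKM in all libraries. Enzymes of dafachronic acid synthesis differed in level, with daf-36 at 6.78 to 10.5 RPKM and daf-9 at 0.064 to 0.334 RPKM. Of the 8 listed targets of NHR-49, 1 was called: hacd-1, a hydroxyacyl-CoA dehydrogenase of fat oxidation, had 65.97, 75.9, 71.5, 74.2 and 72.6 RPKM in abl-1 KO quercetin worms, against 49.5, 61.4, 60.8, 62.9 and 59.7 RPKM in wt quercetin worms (log2 fold change 0.29, SE 0.06, limma adjusted p = 0.0333). The groups did not overlap, and hacd-1 rose while 6 of the 8 targets had fold changes below 0. Of all genes tested, 0.485% were called in this comparison. fat-5, a palmitoyl-CoA desaturase, had 14.1, 9.02, 13.7, 15.9 and 14.0 RPKM in abl-1 KO quercetin worms, against 18.5, 9.90, 24.6, 28.3 and 26.8 RPKM in wt quercetin worms (log2 fold change -0.61, SE 0.27, adjusted p = 0.568). In untreated worms hacd-1 averaged 70.1 RPKM in abl-1 KO and 60.2 RPKM in wt. There fat-5 averaged 13.2 RPKM in abl-1 KO and 21.1 RPKM in wt, and no listed target was called.

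Among 8 genes of the molt that depend on NHR-23, 7 were tested and none was called. In untreated worms 6 of 7 were above 0 in abl-1 KO against wt, and the smallest p was that of the molting protease gene nas-37 with 4.82, 5.46, 4.65, 4.75 and 4.16 RPKM in abl-1 KO, against 4.06, 4.45, 3.47, 3.28 and 3.71 RPKM in wt (log2 fold change 0.30, SE 0.08, adjusted p = 0.1). The cuticle collagen gene rol-6 was at 3.30 RPKM in abl-1 KO quercetin replicate 3 and at 5.96 RPKM in wt quercetin replicate 4, and at most at 0.84 RPKM in the other 22 libraries. nhr-23 had 23.4 and 23.6 RPKM in those 2 libraries, at the low end of its range.

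Several of the receptor genes that varied most did so along the replicate numbers of the labels. The largest SDs on the log2 scale were those of nhr-156 (0.58), nhr-53 (0.49), nhr-137 (0.43), nhr-117 (0.39), nhr-8 (0.37), nhr-203 (0.34), nhr-17 (0.32), nhr-162 (0.30), nhr-74 (0.29) and nhr-202 (0.29). nhr-156 had 1.71, 3.19, 0.682, 0.949 and 0.870 RPKM in abl-1 KO quercetin worms, 1.28, 2.29, 0.552, 0.804 and 0.748 in wt quercetin worms, 1.63, 2.03, 1.38 and 0.721 in wt lutein worms, 2.31, 4.43, 0.660, 1.09 and 1.00 in abl-1 KO untreated worms, and 1.58, 1.80, 1.11, 0.695 and 0.793 in wt untreated worms, in the order of their numbers. In each group replicates 1 and 2 were the highest. nhr-17, nhr-74 and nhr-162 did not follow the numbers in this way: their mean log2 difference between libraries numbered 1 or 2 and the others was 0.12, -0.12 and 0.16, against 0.95 for nhr-156.

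The 10 libraries numbered 1 or 2 were therefore described beside the others, a split chosen after the values had been seen and given without a test. nhr-53 lay between 1.88 and 4.41 RPKM in them and between 0.977 and 2.19 RPKM in the 14 libraries numbered 3 to 5. nhr-137 lay between 4.49 and 8.08 RPKM in those numbered 1 or 2 and between 2.29 and 5.26 RPKM in the others. nhr-8, which acts in cholesterol balance and resistance to toxins, went the other way, with 2.66 to 3.74 RPKM against 2.81 to 6.12 RPKM. Of all members tested, 69.4% had a higher mean in the libraries numbered 1 or 2, against 57.5% of all genes tested.

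wt lutein replicate 3 looked like the libraries numbered 1 or 2 in several genes but not in all. It had 1.38 RPKM of nhr-156, 45.9 RPKM of nhr-114 and 2.81 RPKM of nhr-8. Its nhr-137 (4.46 RPKM) and summed hypodermis markers (748 RPKM) lay below the ranges of those libraries, which began at 4.49 and 837 RPKM. With this library set aside, nhr-156 did not overlap between the 10 libraries numbered 1 or 2 (1.28 to 4.43 RPKM) and the remaining 13 (0.552 to 1.11 RPKM), the 1 member for which this was so, while 2.19% of all genes tested had no overlap. The library was set aside after its values had been seen. With it kept, 0 members and 1.14% of all genes tested were without overlap. The median of nhr-114 was 45.1 RPKM in the libraries numbered 1 or 2 and 34.1 RPKM in those 13, with overlapping ranges. By their nhr-156 values the wt lutein group holds 3 libraries of this kind out of 4 and each other group 2 out of 5. The part of this in the lutein comparisons was not tested.

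Some targets of the receptors were split without overlap by the same libraries, namely the listed genes of the propionate shunt and acs-2, while the other 7 listed targets of NHR-49 and all 8 of NHR-23 overlapped. NHR-10 and NHR-68 turn on the propionate shunt, the route by which the worm breaks down propionate when vitamin B12 is short, and all 5 listed genes of it were separated without overlap. acdh-1, the acyl-CoA dehydrogenase of the first step, lay between 687 and 885 RPKM in the libraries numbered 1 or 2, at 779 RPKM in wt lutein replicate 3 and between 487 and 584 RPKM in the other 13. hach-1 lay between 195 and 232 RPKM, at 201 RPKM and between 115.1 and 144 RPKM in the same 3 sets. nhr-10 itself (9.71 to 17.8 RPKM in the libraries numbered 1 or 2, 9.76 to 14.0 in the 13 others) and nhr-68 (15.0 to 22.0 and 13.3 to 17.9) overlapped.

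acs-2, an acyl-CoA synthetase of mitochondrial β-oxidation and the best known target of NHR-49, showed the same split. It had 8.26 to 25.3 RPKM in the libraries numbered 1 or 2, 14.1 RPKM in wt lutein replicate 3 and 1.48 to 4.50 RPKM in the others. nhr-49 itself had 42.8 to 52.7 RPKM in the libraries numbered 1 or 2, 46.4 RPKM in wt lutein replicate 3 and 41.5 to 49.9 RPKM in the 13 others, with overlap. The part of the nhr-49 level in the acs-2 values was not tested. Summed hypodermis markers were 837 to 1168 RPKM in the libraries numbered 1 or 2 and 579 to 909 RPKM in those numbered 3 to 5. This was not particular to the hypodermis. Summed muscle markers were 734 to 863 RPKM and 579 to 738 RPKM in the same 2 sets. Summed collagen genes of the col family were 24737 to 29859 RPKM and 19307 to 25822 RPKM. The labels do not say what the replicate numbers stand for, and the part of these marker levels in the receptor values was not tested.

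**Figure D5:**
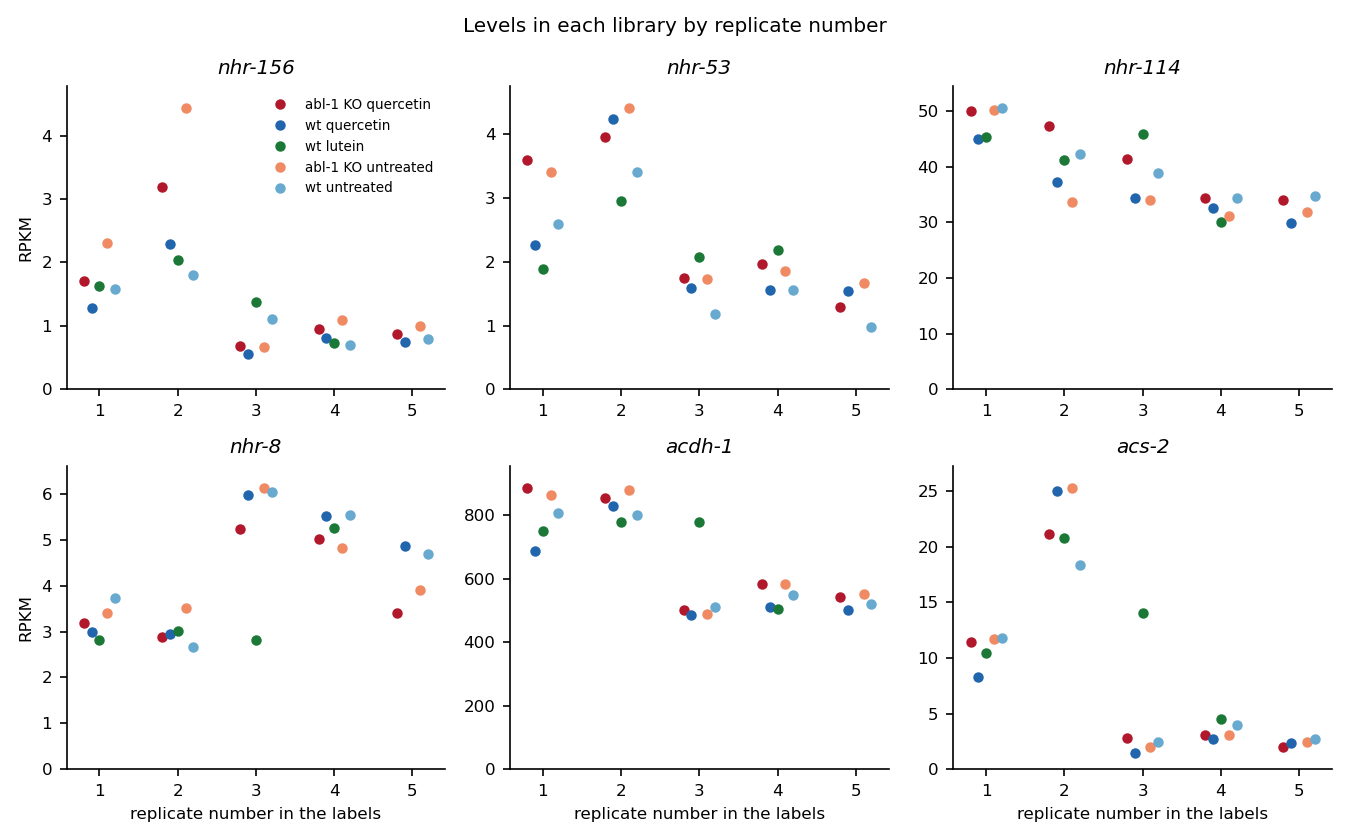
RPKM in each library against its replicate number for 4 receptor genes and for acdh-1 and acs-2, coloured by group. Libraries numbered 1 or 2 and wt lutein replicate 3 stand apart from the rest for nhr-156, acdh-1 and acs-2, and nhr-8 is lower in them than in most others.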

How the data were processed

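RNA was extracted from whole worms, and stranded mRNA libraries were sequenced as single reads on a HiSeq system. bcl2fastq (2.20.0.422, per the labels and methods) made the reads, which the authors trimmed and mapped to WBcel235 with CLC Genomics Workbench. The authors deposited 1 table of RPKM values per gene and library, which hold no counts. The 24 libraries were grouped by their labels, and 0 columns were left unused. The methods text calls NV48 the amyloid strain and gives another name for the abl-1 KO strain, and the labels (NV48 wild type, NV50 abl-1 KO) were followed.

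Values were tested as log2(RPKM + 0.5) with limma 3.58.1 (R 4.3.3, trend) in 1 fit over the 5 groups, on 12771 genes with at least 0.5 RPKM in 4 or more libraries. p-values were adjusted over all of them by Benjamini-Hochberg at 0.05, and fold changes on this scale understate those of low genes. Exact permutation tests are two-sided. Nothing but the methods text says that replicates are biological, and if they were not the p-values would measure technical spread only. The depth was estimated from the steps of low values, of which 49.8 to 60.5% lay within 0.1 of a whole read (20% by chance), too few to recover reads. Test scripts were tested on simulated data. Members named are those with the smallest p per comparison, the highest and the most variable levels, those of the role lists with at least 1 RPKM, and the widest neighbouring pairs, while nhr-5, nhr-46, nhr-88, nhr-244 and the genes listed at 0 were named after their values were seen. The members, lists and tests were chosen with earlier results of these data known. Alternatives were other scalings, filters, pseudocounts, fits and left-out libraries.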

Additional observations from a re-analysis of the deposited data

Results flagged for a closer look

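In 12 of 220 groups of 4 or 5 libraries (44 named members in 5 groups each), 1 library stood so far above the rest of its group that the gap took up most of the group's range. For independent groups picked without regard to their values, chance would give about 1 in 20, here 11. These members were named partly for small p values or a large spread and share the same libraries, so the count cannot be weighed against chance. All 12 outlying values were at the high end. abl-1 KO untreated replicate 2 accounted for 4: nhr-110 (2.52 RPKM, with 1.30 to 1.64 RPKM in the other 4 libraries), nhr-176 (3.72, others 1.90 to 2.34), nhr-117 (4.05, others 1.079 to 1.72) and nhr-162 (1.43, others 0.433 to 0.698). Its replicate 1 stood apart for nhr-114 (50.2 RPKM, others 31.2 to 34.1).

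abl-1 KO quercetin replicate 2 stood apart for nhr-115 (1.25 RPKM, others 0.694 to 0.763) and nhr-23 (27.0 RPKM, others 23.4 to 24.2). wt quercetin replicate 2 did so for nhr-23 (26.4 RPKM, others 23.6 to 24.3) and nhr-53 (4.24 RPKM, others 1.54 to 2.26), and wt lutein replicate 4 for nhr-8 (5.25 RPKM, others 2.81 to 3.01). In wt untreated worms replicate 2 stood apart for nhr-133 (3.54 RPKM, others 3.02 to 3.16) and replicate 5 for nhr-23 (24.9 RPKM, others 23.6 to 23.9).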

How the results depend on the processing

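With a replicate block, which takes out the mean of each replicate number, 2 members passed in abl-1 KO untreated against wt untreated worms (nhr-17, log2 fold change -0.35, adjusted p = 0.0229, and nhr-88, 0.27, adjusted p = 0.0165), 1 in abl-1 KO quercetin against wt quercetin worms (nhr-17, -0.58, adjusted p = 0.000434) and 4 in the test among the 5 groups (nhr-17, nhr-74, nhr-88 and nhr-204). The labels do not say that a number marks a shared batch, and over 46 pairs of libraries with the same number the correlation of their deviations ran from -0.607 to 0.669 over all genes tested and from -0.0649 to 0.648 over the members. Of the 24 libraries, 15 correlated best with a library of their own number, a hint from the data and not the design. With the block, 43 of the 160 members stood at an unadjusted p of at most 0.05 in untreated abl-1 KO against wt worms, instead of 29. The share of all genes called with the block or with a library left out is not given here. The calls of members in those fits are therefore not set against a background.

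Leaving out 1 library at a time gave 0 to 1 members in the test among the 5 groups, the 1 being nhr-17 without wt untreated replicate 5, and 0 in every other comparison. Other scalings, filters, pseudocounts and separate fits called 0 members. The members' median in abl-1 KO quercetin against abl-1 KO untreated worms, -0.03, turned to 0.01 without abl-1 KO untreated replicate 2. limma-voom and leaving out abl-1 KO untreated replicate 2 with wt quercetin replicate 4, the highest of their groups in sperm markers, also called 0. Both were chosen after seeing the data, and abl-1 KO quercetin replicates 2 and 3, with higher sums than wt quercetin replicate 4, were kept. Members below about 0.5 RPKM, 107 of 267, are too thinly covered to be tested.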
